A study of Mus musculus with 9 samples.

Results

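Adrenergic receptors carry the signals of noradrenaline and adrenaline into cells, and the mouse genes for 7 of them, Adra1a, Adra1b, Adra1d, Adra2a, Adra2b, Adra2c and Adrb1, were followed through hippocampal RNA. The genes were chosen by name, as rows of the deposited table whose Ensembl identifier maps in GENCODE M21 to one of these symbols, and they are 7 of 14779 genes. The choice was made with earlier results of these data known. Hippocampal RNA came from 3 groups of 3 mice. CIE+IL17 Ab mice had CIE, the usual short form of chronic intermittent ethanol exposure, and received an antibody against interleukin 17A. CIE+IgG mice had the same exposure and an isotype control antibody, and Air+IgG mice were kept in air with that control antibody. Strain, sex, age and the length of exposure are given in none of the sources used here, and air-kept mice given the interleukin antibody were not analysed here. The series is about interleukin 17 blockade after alcohol, so the comparisons ask which receptor transcripts differed with the antibody in ethanol-exposed mice, how these mice compared with air controls, and what differed with ethanol exposure under control antibody.

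All 7 proteins are G protein-coupled receptors. The alpha-1 receptors (Adra1a, Adra1b, Adra1d) act through Gq and phospholipase C, the alpha-2 receptors (Adra2a, Adra2b, Adra2c) act through Gi, lower cyclic AMP and often sit on nerve endings that release noradrenaline, and the beta receptor encoded by Adrb1 acts through Gs and raises cyclic AMP. In the hippocampus, axons from the locus coeruleus supply noradrenaline, which is known for its effects on arousal, memory and synaptic plasticity.

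The libraries held 7372658 to 11894628 estimated counts. CIE+IL17 Ab replicate 1 and Air+IgG replicate 2 stood apart by Lars2, the gene of the mitochondrial leucyl-tRNA synthetase, at 68800 and 79820 CPM (counts scaled to a common library size with TMM factors), against 35.2 to 205 CPM in the other libraries. Markers of hippocampal CA1, CA2, CA3 and dentate neurons were measured in every group, but the summed level of 8 CA1 pyramidal neuron markers was 170 to 313 CPM in CIE+IL17 Ab, 483 to 671 CPM in CIE+IgG and 663 to 781 CPM in Air+IgG libraries. For 15 markers of thalamus and habenula, regions next to the hippocampus, the sum was 1279 to 2307 CPM in CIE+IL17 Ab, 297 to 591 CPM in CIE+IgG and 268 to 343 CPM in Air+IgG libraries. Dissected tissue is a mixture, so fewer cells of a type and less RNA per cell cannot be told apart in any receptor value given here. The label numbers of the libraries fall into 37 to 39, with 1 library of each group, and 54 to 60, with the other 6; the labels do not say what they mean.

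Of the 7 receptor genes, 4 differed between CIE+IL17 Ab and Air+IgG hippocampus at an adjusted p under 0.05. Adra1b and Adra2b rose, Adra1d and Adra2c fell, and Adra1a, Adra2a and Adrb1 did not pass. Between CIE+IL17 Ab and CIE+IgG only Adra1b passed, as a rise, and between CIE+IgG and Air+IgG no receptor gene passed. Called genes were 13.5% of all 14696 genes tested for CIE+IL17 Ab against Air+IgG (6.83% higher and 6.71% lower), 3.18% for CIE+IL17 Ab against CIE+IgG (1.78% higher and 1.41% lower) and 0% for CIE+IgG against Air+IgG (0% in either direction). Each group enters 2 of the 3 comparisons, so the comparisons share libraries and are not independent of each other. The median log2 fold change over the 7 genes was 0.08 for CIE+IL17 Ab against CIE+IgG, -0.04 for CIE+IL17 Ab against Air+IgG and -0.13 for CIE+IgG against Air+IgG, beside 0.01, 0.01 and -0.01 over all genes tested.

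**Figure D1:**
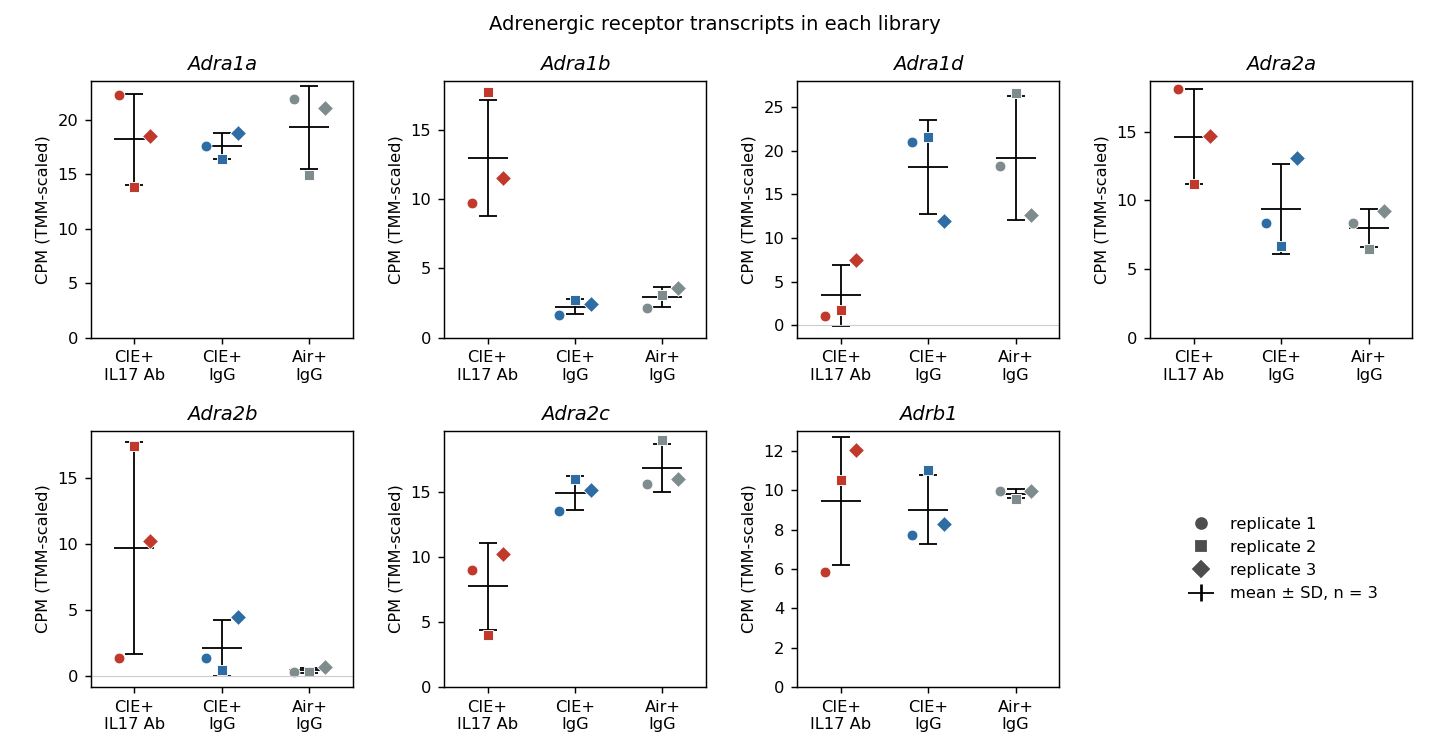
CPM (linear axis from 0, scaled with TMM factors) of each receptor gene in each library; points are replicates and bars are the mean ± SD of 3 libraries. Adra1b was above 9.7 CPM in all CIE+IL17 Ab libraries and below 3.7 in all others, and Adra1d was below 7.5 CPM in all CIE+IL17 Ab libraries and above 11.9 in all others.

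Of the alpha-1 receptor genes, Adra1a (ENSMUSG00000045875, GRCm38 chr14:66635251-66771168, plus strand), the gene of the alpha-1A receptor, did not pass in any comparison. It had 22.2, 13.9 and 18.5 CPM in CIE+IL17 Ab libraries, against 17.6, 16.4 and 18.7 CPM in CIE+IgG libraries and 21.9, 14.9 and 21.02 CPM in Air+IgG libraries. The groups overlapped in all comparisons. Its log2 fold change was 0.04 ± 0.20 (SE) for CIE+IL17 Ab against CIE+IgG, with an adjusted p of 0.935 by edgeR's quasi-likelihood test with Benjamini-Hochberg adjustment over all genes tested, which also gives every adjusted p that follows. For CIE+IL17 Ab against Air+IgG it was -0.10 ± 0.20 (edgeR, adjusted p = 0.771), and the sign of both values turned with the libraries left out.

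Adra1b (ENSMUSG00000050541, GRCm38 chr11:43774606-43901210, minus strand) encodes the alpha-1B receptor. RefSeq (GRCm38.p6) lists 2 promoter windows for it, each of 300 bases, most of it upstream of an annotated start. They are shown because Adra1b was the receptor gene that passed in both comparisons of CIE+IL17 Ab, and the windows differ in base composition. Capitals mark matches to the GC box letters GGGCGG or their complement.
Adra1b, upstream start, chr11:43901188-43901487, minus strand: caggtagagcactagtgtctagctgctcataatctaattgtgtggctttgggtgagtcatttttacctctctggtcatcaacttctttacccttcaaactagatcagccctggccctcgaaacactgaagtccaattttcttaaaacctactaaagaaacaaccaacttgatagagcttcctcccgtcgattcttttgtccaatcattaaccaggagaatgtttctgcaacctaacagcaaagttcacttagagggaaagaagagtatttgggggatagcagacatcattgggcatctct
Adra1b, inner start, chr11:43836440-43836739, minus strand: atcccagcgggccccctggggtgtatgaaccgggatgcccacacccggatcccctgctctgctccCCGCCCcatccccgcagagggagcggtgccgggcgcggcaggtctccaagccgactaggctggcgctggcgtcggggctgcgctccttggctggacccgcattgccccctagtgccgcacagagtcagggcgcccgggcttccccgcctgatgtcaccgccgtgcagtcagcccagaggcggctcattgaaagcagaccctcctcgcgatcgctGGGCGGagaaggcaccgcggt
The upstream start lies 27 bases from the GENCODE gene start, and its window has 42.3% G and C, 3 CpG and none of the motifs searched. The inner start lies 64721 bases away from the gene start, and its window has 71.3% G and C, 28 CpG and 2 GC boxes. Over 32851 mouse promoter windows of the same length, the medians were 52.7% G and C and 7 CpG. The motifs searched on both strands were the TATA box TATAAA, in 13.6% of all windows, the GC box GGGCGG, in 35.7%, the cyclic AMP response element half-site TGACG, in 20.8%, and the TCF/LEF core TTCAAAG, in 5.14%. The gene counts do not say which start was used.

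Adra1b had 9.73, 17.7 and 11.5 CPM in CIE+IL17 Ab libraries, against 1.61, 2.69 and 2.42 CPM in CIE+IgG libraries and 2.17, 3.09 and 3.599 CPM in Air+IgG libraries. Every CIE+IL17 Ab library was above every other library, while CIE+IgG and Air+IgG overlapped. The values rest on 405 counts in CIE+IL17 Ab, 64 in CIE+IgG and 81 in Air+IgG libraries. The level was 5.797-fold that of CIE+IgG (log2 fold change 2.54 ± 0.31 SE, edgeR adjusted p = 0.0178), rank 14 by p among all genes tested. It was 4.40-fold that of Air+IgG (log2 fold change 2.14 ± 0.30, edgeR adjusted p = 0.0105), rank 78. For CIE+IgG against Air+IgG the log2 fold change was -0.40 ± 0.33 (edgeR adjusted p = 0.9997). Within the 6 libraries numbered 54 to 60 it was 2.30 ± 0.35 against CIE+IgG (edgeR adjusted p = 0.148) and 2.02 ± 0.35 against Air+IgG (edgeR adjusted p = 0.113). The rise against CIE+IgG missed the threshold without CIE+IgG replicate 1 (edgeR adjusted p = 0.106) or replicate 2 (0.0564), with fold changes of 2.35 and 2.67 on the log2 scale. The rise against Air+IgG missed it without Air+IgG replicate 3 (2.31, edgeR adjusted p = 0.0537).

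Adra1d (ENSMUSG00000027335, GRCm38 chr2:131545850-131562283, minus strand), the gene of the alpha-1D receptor, went the other way. It had 1.11, 1.72 and 7.49 CPM in CIE+IL17 Ab libraries, against 20.9, 21.5 and 11.9 CPM in CIE+IgG libraries and 18.2, 26.6 and 12.6 CPM in Air+IgG libraries. All 3 CIE+IL17 Ab libraries were below the other 6, with replicate 3 nearest to them, and CIE+IgG overlapped Air+IgG. The level fell to 0.183 times that of Air+IgG (log2 fold change -2.45 ± 0.61, edgeR adjusted p = 0.0355). Against CIE+IgG the log2 fold change was as large, -2.38 ± 0.61, but did not pass (edgeR adjusted p = 0.0698). For CIE+IgG against Air+IgG it was -0.07 ± 0.54 (edgeR adjusted p = 0.9997). Without CIE+IL17 Ab replicate 3 the values were -3.69 against Air+IgG (edgeR adjusted p = 0.00399) and -3.61 against CIE+IgG (0.00585), both past the threshold. The value against CIE+IgG also passed with DESeq2 (-2.40 ± 0.59, adjusted p = 0.00150) and with the label number as a term (-2.40 ± 0.50, edgeR adjusted p = 0.0422). The call against Air+IgG was kept in 8 of 19 alternative fits, with values from -3.69 to -1.80, and it was lost in the fit of these 2 groups alone, without the 2 Lars2-rich libraries, and without CIE+IL17 Ab replicate 1 or 2, CIE+IgG replicate 1 or 2, or any Air+IgG replicate. In the 6 libraries numbered 54 to 60 the value was -2.32 ± 0.70 against Air+IgG (edgeR adjusted p = 0.190). Adra1d is overlapped over 670 bases by Gm14285, a gene on the opposite strand, and its estimated counts had decimals in 7 of 9 libraries; what this adds to its level was not tested.

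The make-up of the alpha-1 set differed between groups. Levels between genes are compared as CPM per kilobase of merged GENCODE exons. Adra1d made up 9.74%, 11.7% and 41.7% of the summed alpha-1 level in CIE+IL17 Ab libraries, against 81.6%, 80.9% and 68.7% in CIE+IgG and 75.3%, 84.2% and 65.6% in Air+IgG libraries. Adra1b made up 47.9%, 67.7% and 35.9% in CIE+IL17 Ab libraries, against 3.52%, 5.68% and 7.84% in CIE+IgG and 5.03%, 5.49% and 10.53% in Air+IgG libraries. Neither share overlapped between CIE+IL17 Ab and the other groups. The shares depend on the length used, as the merged exons of Adra1a span 8728 bases and its longest transcript 4282. Per kilobase of longest transcript, Adra1a exceeded Adra1b in CIE+IL17 Ab replicates 1 (5.19 against 2.92) and 3 (4.31 against 3.45), but not in replicate 2. The ratio of the Adra1b to the Adra1d level was 4.91, 5.77 and 0.862 in CIE+IL17 Ab libraries, 0.0432, 0.0702 and 0.114 in CIE+IgG libraries and 0.0669, 0.0652 and 0.160 in Air+IgG libraries. Adra1b thus exceeded Adra1d in 2 of 3 CIE+IL17 Ab libraries and in none of the other 6.

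Among the alpha-2 receptor genes, Adra2a (ENSMUSG00000033717, GRCm38 chr19:54044151-54048982, plus strand) encodes the receptor best known as the autoreceptor of noradrenergic neurons. It had 18.1, 11.2 and 14.7 CPM in CIE+IL17 Ab libraries, against 8.38, 6.67 and 13.1 CPM in CIE+IgG libraries and 8.34, 6.46 and 9.19 CPM in Air+IgG libraries. CIE+IL17 Ab lay above Air+IgG without overlap, but overlapped CIE+IgG through replicate 3 of that group. The log2 fold change did not pass in either comparison, at 0.86 ± 0.28 against Air+IgG (edgeR adjusted p = 0.0707) and 0.63 ± 0.27 against CIE+IgG (edgeR adjusted p = 0.214). For CIE+IgG against Air+IgG it was 0.23 ± 0.28 (edgeR adjusted p = 0.9997). Without CIE+IgG replicate 3, which enters the shared estimate of spread, the value against Air+IgG passed (0.85, edgeR adjusted p = 0.0425), and it passed with DESeq2 on all libraries (0.86 ± 0.31, adjusted p = 0.0333).

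The promoter windows of Adra2b and Adra2c from RefSeq (GRCm38.p6) are shown next, as the alpha-2 genes that passed against Air+IgG in opposite directions. Capitals again mark GC box matches.
Adra2b, chr2:127362929-127363228, plus strand: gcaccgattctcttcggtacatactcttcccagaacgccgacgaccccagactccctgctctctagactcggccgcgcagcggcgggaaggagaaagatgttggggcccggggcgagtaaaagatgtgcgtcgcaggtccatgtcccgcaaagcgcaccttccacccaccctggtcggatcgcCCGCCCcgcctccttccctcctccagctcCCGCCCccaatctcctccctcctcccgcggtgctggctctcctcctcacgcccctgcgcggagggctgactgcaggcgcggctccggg
Adra2c, chr5:35278316-35278615, plus strand: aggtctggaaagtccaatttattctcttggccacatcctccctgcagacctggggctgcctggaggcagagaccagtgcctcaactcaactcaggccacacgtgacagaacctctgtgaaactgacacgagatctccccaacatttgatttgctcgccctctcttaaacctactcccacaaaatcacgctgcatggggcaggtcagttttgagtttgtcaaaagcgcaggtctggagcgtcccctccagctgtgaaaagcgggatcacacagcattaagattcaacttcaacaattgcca
The Adra2b window has 68.0% G and C, 29 CpG and 2 GC boxes. The Adra2c window has 51.3% G and C, 7 CpG and none of the motifs searched. Its start lies 247 bases inside the GENCODE gene, and that of Adra2b 29 bases outside it. RefSeq windows matched 5 of the 7 receptor genes.

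Adra2b (ENSMUSG00000058620, GRCm38 chr2:127363208-127367221, plus strand), the gene of the alpha-2B receptor, was the most variable of the set. It had 1.39, 17.4 and 10.2 CPM in CIE+IL17 Ab libraries, against 1.40, 0.468 and 4.47 CPM in CIE+IgG libraries and 0.325, 0.269 and 0.663 CPM in Air+IgG libraries. CIE+IL17 Ab replicate 1 was level with CIE+IgG replicate 1 and below CIE+IgG replicate 3, whereas all 3 CIE+IL17 Ab libraries exceeded all Air+IgG libraries. The biological coefficient of variation estimated for the gene was 0.756, against 0.189 in common over all genes. The Air+IgG level rests on 12 counts in all, 3, 2 and 7 in the 3 libraries, against 329 in CIE+IL17 Ab and 65 in CIE+IgG. The gene passed the count filter only with the help of the CIE+IL17 Ab libraries, where it was high. Its call against Air+IgG is thus not independent of the filter. The ratio of summed counts, scaled by library size, was 27.1 against Air+IgG (95% exact binomial interval of counting error only, 15.3 to 53.0). The fitted log2 fold change was 4.46 ± 1.09 (edgeR adjusted p = 0.0341), a rise. Against CIE+IgG the log2 fold change was 2.17 ± 0.87 (edgeR adjusted p = 0.190), and for CIE+IgG against Air+IgG it was 2.28 ± 1.17 (edgeR adjusted p = 0.9997). The call against Air+IgG was kept in 10 of 18 alternative fits, with values from 3.72 to 4.97, and was lost with limma-voom (4.08 ± 1.65, adjusted p = 0.126) and without CIE+IL17 Ab replicate 2, CIE+IgG replicate 1 or any Air+IgG replicate. In the 6 libraries numbered 54 to 60 the value was 4.23 ± 1.20 (edgeR adjusted p = 0.174).

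Adra2c (ENSMUSG00000045318, GRCm38 chr5:35278319-35281763, plus strand), the gene of the alpha-2C receptor, fell. It had 9.03, 3.99 and 10.2 CPM in CIE+IL17 Ab libraries, against 13.5, 16.0 and 15.2 CPM in CIE+IgG libraries and 15.6, 19.0 and 16.0 CPM in Air+IgG libraries. All CIE+IL17 Ab libraries were below all others, with replicate 2 lowest. The level was 0.454 times that of Air+IgG (log2 fold change -1.14 ± 0.29, edgeR adjusted p = 0.0371). Against CIE+IgG the log2 fold change was -0.96 ± 0.29, which did not pass (edgeR adjusted p = 0.102), and for CIE+IgG against Air+IgG it was -0.17 ± 0.28 (edgeR adjusted p = 0.9997). The call against Air+IgG was kept in 10 of 19 alternative fits, with values from -1.42 to -0.80, and was lost in the fit of these 2 groups alone, without the 2 Lars2-rich libraries, and without CIE+IgG replicate 1 or 2 or any Air+IgG replicate. The value against CIE+IgG passed without CIE+IL17 Ab replicate 3 (-1.24, edgeR adjusted p = 0.0423) and with DESeq2 on all libraries (-0.96 ± 0.32, adjusted p = 0.0302). In the 6 libraries numbered 54 to 60 the value was -0.84 ± 0.19 against Air+IgG (edgeR adjusted p = 0.134).

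Within the summed alpha-2 level per kilobase, Adra2c made up 39.1%, 14.9% and 34.7% in CIE+IL17 Ab libraries, against 65.4%, 75.7% and 53.6% in CIE+IgG and 71.5%, 79.7% and 69.2% in Air+IgG libraries. Its share did not overlap between CIE+IL17 Ab and the other groups. Adra2b made up 5.16%, 55.5% and 29.8% in CIE+IL17 Ab libraries, against 5.79%, 1.90% and 13.6% in CIE+IgG and 1.28%, 0.970% and 2.46% in Air+IgG libraries. It was the largest alpha-2 component in CIE+IL17 Ab replicate 2 alone among the 9 libraries.

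Adrb1 (ENSMUSG00000035283, GRCm38 chr19:56722199-56733113, plus strand), the gene of the beta-1 receptor and the only beta receptor gene of the set, did not pass in any comparison. It had 5.84, 10.49 and 12.02 CPM in CIE+IL17 Ab libraries, against 7.73, 11.0 and 8.30 CPM in CIE+IgG libraries and 9.97, 9.55 and 9.94 CPM in Air+IgG libraries. The CIE+IL17 Ab libraries spanned the values of both other groups. The log2 fold change was 0.08 ± 0.25 against CIE+IgG (edgeR adjusted p = 0.887) and -0.04 ± 0.25 against Air+IgG (edgeR adjusted p = 0.928), and both changed sign when single libraries were left out.

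**Figure D2:**
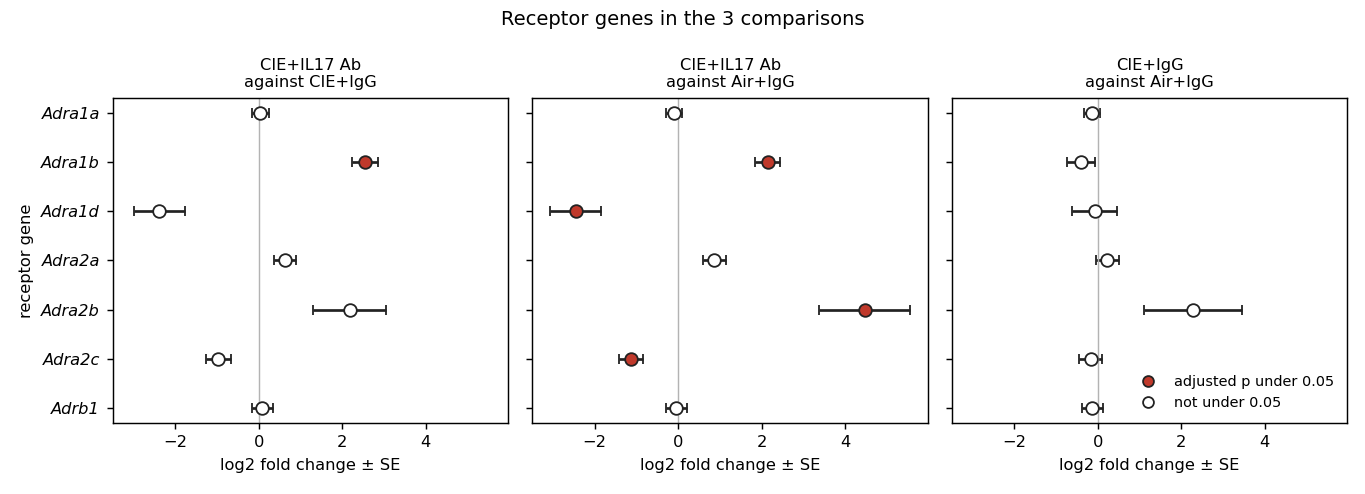
Log2 fold change ± SE (edgeR, linear axis) of the 7 receptor genes in the 3 comparisons; filled points had an adjusted p under 0.05. Adra1b (2.54) is filled for CIE+IL17 Ab against CIE+IgG, Adra1b (2.14), Adra1d (-2.45), Adra2b (4.46) and Adra2c (-1.14) against Air+IgG, and none for CIE+IgG against Air+IgG.

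Counts on less strict criteria are given beside those of the whole table. The receptor genes were chosen with earlier results of these data known, so an excess over all genes is a description and no test. For CIE+IL17 Ab against CIE+IgG, 3 of 7 receptor genes did not overlap between groups (Adra1b higher, Adra1d and Adra2c lower), where 25.9% of all genes tested did not (12.7% higher and 13.2% lower), and 5 of 7 had an unadjusted p under 0.05, where 22.3% of all genes did. For CIE+IL17 Ab against Air+IgG, 5 of 7 did not overlap (Adra1b, Adra2a and Adra2b higher, Adra1d and Adra2c lower), where 35.3% of all genes did not (17.3% higher and 18.1% lower), and 5 of 7 had an unadjusted p under 0.05, where 32% of all genes did. For CIE+IgG against Air+IgG, 0 of 7 were without overlap, where 9.44% of all genes were (4.64% higher and 4.8% lower). None of the 7 had an unadjusted p under 0.05 in that comparison (edgeR), where 2.76% of all genes did, and DESeq2 and limma-voom called no receptor gene there either. In a joint edgeR test of the 3 groups 1 of 7 receptor genes passed, Adra1b (adjusted p = 0.0127), where 5.71% of all genes did, and Adra2b (0.0714), Adra1d (0.0770) and Adra2c (0.0856) did not.

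Ordered by level per kilobase of merged exons, the receptor genes ran in the same order in CIE+IgG and Air+IgG libraries. Adra1d was highest, at 9.55 ± 2.83 in CIE+IgG and 10.1 ± 3.72 in Air+IgG (SD, n = 3 each). Adra2c followed at 4.33 ± 0.37 in CIE+IgG and 4.89 ± 0.53 in Air+IgG, then Adrb1 at 2.66 ± 0.52 in CIE+IgG and 2.90 ± 0.07 in Air+IgG. Next came Adra1a at 2.01 ± 0.14 in CIE+IgG and 2.21 ± 0.44 in Air+IgG, Adra2a at 1.94 ± 0.68 and 1.66 ± 0.29, Adra1b at 0.663 ± 0.167 and 0.873 ± 0.215, and Adra2b at 0.527 ± 0.523 and 0.104 ± 0.053, each in CIE+IgG and Air+IgG in that order. Neighbours in this order were separate in all libraries except Adra1a and Adra2a in both groups and Adra1b and Adra2b in CIE+IgG. In CIE+IL17 Ab libraries no neighbours were separate. Adra1b was at 3.84 ± 1.24, Adra2a at 3.03 ± 0.71, Adrb1 at 2.79 ± 0.95, Adra2b at 2.41 ± 1.995, Adra2c at 2.25 ± 0.96, Adra1a at 2.08 ± 0.48 and Adra1d at 1.81 ± 1.85 CPM per kilobase. With the longest transcript as the length, Adra1a moved to the third place in CIE+IgG (4.11) and Air+IgG (4.50) and to the first in CIE+IL17 Ab (4.25), since its merged exons span 8728 bases and its longest transcript 4282. The summed CPM of all 7 genes was 67.4, 76.3 and 84.6 in CIE+IL17 Ab libraries, 71.2, 74.8 and 74.1 in CIE+IgG libraries and 76.5, 79.9 and 73.0 in Air+IgG libraries, and the groups overlapped.

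**Figure D3:**
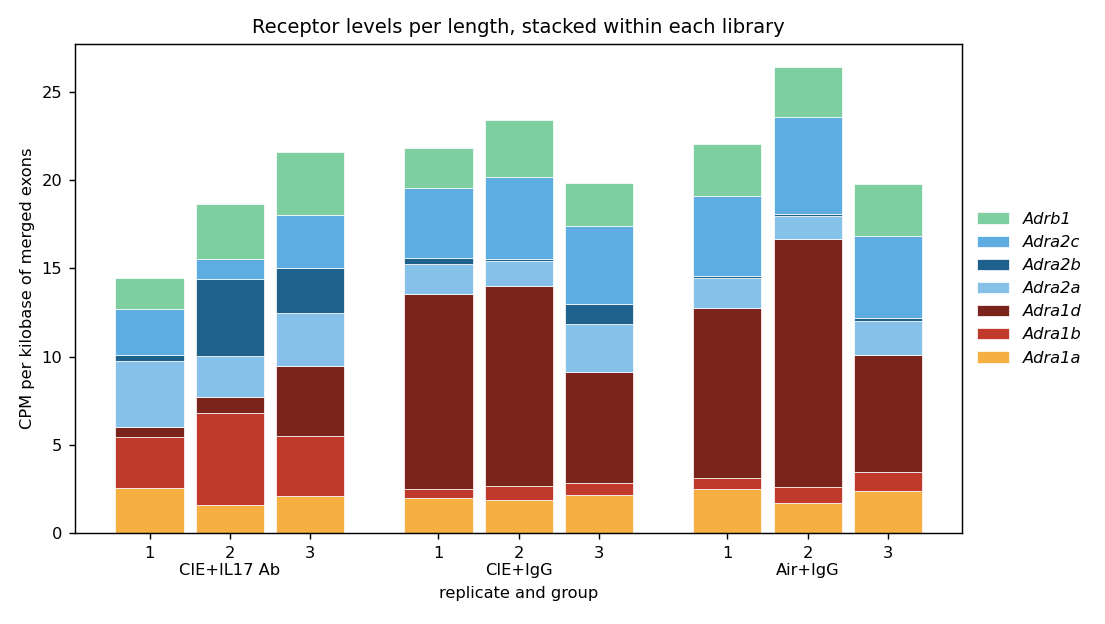
Level of each receptor gene in CPM per kilobase of merged exons (linear axis from 0), stacked within each of the 9 libraries. Adra1d, dark red, is the largest segment in all CIE+IgG and Air+IgG libraries, where it made up 65.6% to 84.2% of the alpha-1 level, and 9.74% to 41.7% in CIE+IL17 Ab libraries.

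Genes with the most similar pattern were found for the 4 called receptor genes, as the smallest root mean square difference of log2 CPM, centred on each gene's own mean, over the 9 libraries. This is a description over libraries that share groups, tissue make-up and depth. The genes were picked by this likeness, so the high and low libraries they share with a receptor gene are no separate observation. For Adra1b they were Cpne9 (0.33), Lrrc55 (0.34), Medag (0.36) and Ano5 (0.36). Cpne9 had 59.9, 102 and 63.0 CPM in CIE+IL17 Ab libraries, 13.5, 17.6 and 17.5 CPM in CIE+IgG libraries and 13.3, 17.8 and 11.7 CPM in Air+IgG libraries. It was high in the same 3 libraries as Adra1b, replicate 2 above all. For Adra1d the nearest were Ptgs2 (0.21), the gene of cyclooxygenase-2, and Nr4a3 (0.23), a nuclear receptor gene, both known as activity-induced genes of neurons, then Rprml (0.27) and Mas1 (0.27). Nr4a3 had 5.70, 9.71 and 30.2 CPM in CIE+IL17 Ab libraries, 81.7, 69.3 and 45.8 CPM in CIE+IgG libraries and 65.1, 93.5 and 66.8 CPM in Air+IgG libraries. Like Adra1d it was lowest in CIE+IL17 Ab replicates 1 and 2, and lowest within CIE+IgG in replicate 3.

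For Adra2b the nearest genes were Prkcd (0.57), Zic1 (0.60), Grid2ip (0.61) and Mc3r (0.68), a looser likeness than for the other 3. Prkcd, the gene of protein kinase C delta, had 55.3, 357 and 270 CPM in CIE+IL17 Ab libraries, 65.9, 26.1 and 106 CPM in CIE+IgG libraries and 26.1, 38.2 and 32.5 CPM in Air+IgG libraries. As for Adra2b, CIE+IL17 Ab replicate 1 stayed within the range of CIE+IgG and replicates 2 and 3 were above all others. For Adra2c they were Crispld1 (0.15), Wscd2 (0.17), Olfm4 (0.19) and Me3 (0.19), all lowest in CIE+IL17 Ab replicate 2. Pearson correlation as the measure named 1 of the same 4 genes for Adra1b, 2 for Adra2c and 0 for Adra1d and Adra2b, so the names depend on the measure.

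**Figure D4:**
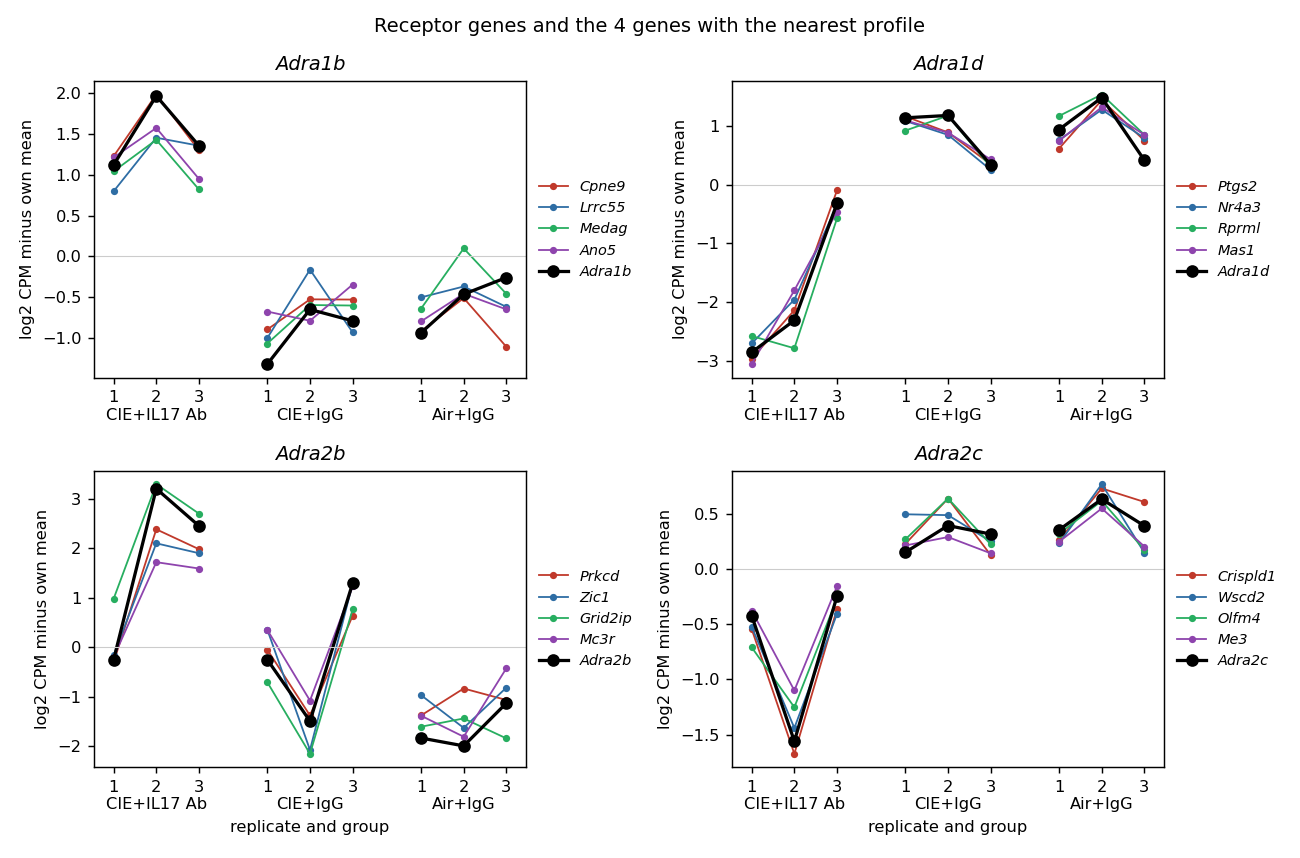
Log2 CPM minus the gene's own mean (log2 scale) over the 9 libraries for Adra1b, Adra1d, Adra2b and Adra2c (black) and the 4 genes with the nearest profile (colours); lines join replicates of a group to guide the eye and carry no order. The nearest gene differed by 0.33 for Adra1b, 0.21 for Adra1d, 0.57 for Adra2b and 0.15 for Adra2c.

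Among the genes nearest to Adra2b by root mean square difference, Prkcd and Zic1 stand on the list of thalamus and habenula markers. By Pearson correlation the nearest to Adra2b were Fam216b (0.986), Ttc12 (0.984), Dnah1 (0.981) and Pmaip1 (0.978), none of them on that list. Gpr151, an orphan receptor gene of habenula neurons, is on the list and had the highest Pearson correlation with Adra1b (0.987 over the 9 libraries). None of the genes named as nearest to Adra1b by root mean square difference is on it. Gpr151 had 14.9, 35.5 and 21.6 CPM in CIE+IL17 Ab libraries, 1.504, 1.76 and 2.05 CPM in CIE+IgG libraries and 1.625, 2.29 and 2.46 CPM in Air+IgG libraries. Of 15 such markers tested, 12 rose in CIE+IL17 Ab against CIE+IgG and 14 against Air+IgG, with median log2 fold changes of 2.83 and 3.39. Over all genes tested, 1.78% and 6.83% were called higher in these comparisons. Prkcd and Zic1 themselves did not pass against CIE+IgG (edgeR adjusted p = 0.1615 and 0.418). Zic1 did not pass against Air+IgG either (edgeR adjusted p = 0.0646). The most abundant was Slc17a6, a vesicular glutamate transporter, with 483, 390 and 166 CPM in CIE+IL17 Ab libraries, 28.0, 47.6 and 50.8 CPM in CIE+IgG libraries and 37.6, 19.0 and 41.7 CPM in Air+IgG libraries. Pou4f1, which defines habenula neurons, was at 0 in replicates 1 and 2 of CIE+IgG and of Air+IgG and was measured in every CIE+IL17 Ab library. The summed level of the list, like Adra1b, put the 3 CIE+IL17 Ab libraries above the other 6, and its part in the rise of Adra1b and Adra2b was not tested.

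Of 8 CA1 markers, 3 fell in CIE+IL17 Ab against CIE+IgG (Fibcd1, Mpped1 and Ccn3) and 4 against Air+IgG (these and Pou3f1), with median log2 fold changes of -1.59 and -1.87. One marker, Dcn, was above 0 against CIE+IgG, at 0.24 ± 0.32 (edgeR adjusted p = 0.719). The CA1 sum, like Adra1d and Adra2c, put the 3 CIE+IL17 Ab libraries below the other 6. Within Air+IgG, replicate 2, which was rich in Lars2, had the lowest CA1 sum (663 CPM) and the highest Adra1d and Adra2c. The most abundant, Mpped1, had 36.7, 17.2 and 45.5 CPM in CIE+IL17 Ab libraries, 129, 187 and 90.8 CPM in CIE+IgG libraries and 203, 153 and 210.1 CPM in Air+IgG libraries. No CA1 marker was at 0 in any library. For 8 dentate granule cell markers the sum was 167 to 455 CPM in CIE+IL17 Ab, 348 to 650.1 CPM in CIE+IgG and 430 to 953 CPM in Air+IgG libraries, with 0 of 8 called in either comparison. The dentate sum was highest in Air+IgG replicate 2. For 10 astrocyte markers the sum was 4727 to 5799 CPM in CIE+IL17 Ab, 6494 to 7340 CPM in CIE+IgG and 7254 to 7547 CPM in Air+IgG libraries. Most of that sum was Slc1a2, a glutamate transporter, with 3224 to 4257 CPM in CIE+IL17 Ab, 4770 to 5734 CPM in CIE+IgG and 5633 to 5916 CPM in Air+IgG libraries. Most of the list went the other way, with 7 of 10 markers above 0 in both comparisons and median log2 fold changes of 0.29 against CIE+IgG and 0.24 against Air+IgG. Of the 10, Gja1 rose against CIE+IgG and Slc1a2 fell against Air+IgG. Adra1a and Adrb1 did not pass in these comparisons. The part of any of these lists in the receptor values was not tested.

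Markers of other tissues and cell types varied from library to library. The sum of 9 choroid plexus markers was 441 to 10030 CPM in CIE+IL17 Ab, 4482 to 7889 CPM in CIE+IgG and 832 to 5787 CPM in Air+IgG libraries, lowest in CIE+IL17 Ab replicate 1, where Adra2b was also lowest of its group. The sum of 11 striatum markers was 236 to 786 CPM in CIE+IL17 Ab, 249 to 1240 CPM in CIE+IgG and 242 to 254 CPM in Air+IgG libraries. It was highest in CIE+IgG replicate 3, where Adra2a and Adra2b were highest and Adra1d lowest of their group. Within CIE+IL17 Ab it was highest in replicate 3 (786 CPM), where Adra1d was highest of its group and Adra2a and Adra2b were not. Neither list had a called gene in either comparison of CIE+IL17 Ab. The sum of 10 interneuron markers was 665 to 1393 CPM in CIE+IL17 Ab, 1114 to 1513 CPM in CIE+IgG and 1060.0 to 1305 CPM in Air+IgG libraries, and that of 10 CA2 and CA3 markers was 360.0 to 553 CPM in CIE+IL17 Ab, 447 to 600 CPM in CIE+IgG and 433 to 513 CPM in Air+IgG libraries. Of the interneuron markers, 2 fell against CIE+IgG (Sst and Cnr1) and 3 against Air+IgG (these and Npy). Of the CA2 and CA3 markers, Grik4 fell in both comparisons, and Amigo2, Elavl2 and Cacng5 rose against Air+IgG. Pericyte and smooth muscle markers summed to 285 to 323 CPM in CIE+IL17 Ab, 249 to 259 CPM in CIE+IgG and 261 to 331 CPM in Air+IgG libraries, and 2 of 10 (Abcc9 and Kcnj8) rose against Air+IgG. Meningeal fibroblast markers summed to 381 to 469 CPM in CIE+IL17 Ab, 198 to 332 CPM in CIE+IgG and 588 to 1076 CPM in Air+IgG libraries, and 4 of 11 (Slc22a6, Fmod, Gjb2 and Ptgds) fell against Air+IgG. Their part in the receptor values was not tested.

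Genes around the receptors were taken from 6 lists covering noradrenaline handling, G proteins, effectors and desensitization, of which 71 genes were tested. These lists, too, were chosen with earlier results of these data known, so their shares are a description and no test. In CIE+IL17 Ab against Air+IgG 10 rose and 9 fell, 26.8% of the 71, where 13.5% of all genes were called. Against CIE+IgG 3 rose and 3 fell, 8.45% of the 71, where 3.18% of all genes were called. None passed in CIE+IgG against Air+IgG. By list, called against Air+IgG were 66.7% of synthesis and storage, 20% of uptake and breakdown and 20% of G protein genes. For alpha-1 effectors, cyclic AMP pathway and desensitization genes the shares were 50%, 26.1% and 11.1%. Against CIE+IgG the shares were 0% for the first 3 lists, then 25%, 4.35% and 11.1%. The median log2 fold change of the 71 was 0.01 against Air+IgG and 0.04 against CIE+IgG, close to that of all genes. The 12 called genes with the smallest p are named.

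On the supply side, 2 of 3 genes of noradrenaline synthesis and storage rose against Air+IgG and 0 of 3 against CIE+IgG. One was Th, the gene of tyrosine hydroxylase, at 5.837, 3.6 and 1.16 CPM in CIE+IL17 Ab libraries, 0.322, 0.819 and 1.49 CPM in CIE+IgG libraries and 0.650, 0.269 and 0.758 CPM in Air+IgG libraries (edgeR adjusted p = 0.0433 against Air+IgG). These are few counts and CIE+IL17 Ab replicate 3 overlapped CIE+IgG. Of 5 genes of uptake and breakdown, Maob, the gene of monoamine oxidase B, rose to 57.03 ± 23.7 CPM in CIE+IL17 Ab, against 24.0 ± 3.03 CPM in Air+IgG libraries (SD, n = 3 each; log2 fold change 1.25 ± 0.28 SE, edgeR adjusted p = 0.0270). Th was chosen for mention after its values were seen.

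Of 10 G protein subunit genes, 2 fell against Air+IgG and 0 passed against CIE+IgG. Gnaq, the Gq subunit through which alpha-1 receptors act, had 187 ± 21.98 CPM in CIE+IL17 Ab and 284 ± 37.97 CPM in Air+IgG libraries (SD, n = 3 each; log2 fold change -0.60 ± 0.14 SE, edgeR adjusted p = 0.0305).

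Of 12 alpha-1 effector genes, 1 rose and 2 fell against CIE+IgG, and 2 rose and 4 fell against Air+IgG. The beta phospholipases C, which Gq activates, are represented by a rise of Plcb4 and a fall of Plcb1. Plcb4 had 294, 330 and 191 CPM in CIE+IL17 Ab libraries, against 65.7, 47.4 and 106 CPM in CIE+IgG libraries and 53.2, 34.2 and 56.1 CPM in Air+IgG libraries. It rose by 1.89 ± 0.33 against CIE+IgG (edgeR adjusted p = 0.0326) and 2.503 ± 0.34 against Air+IgG (edgeR adjusted p = 0.0105) on the log2 scale. Plcb1 had 173, 160 and 256 CPM in CIE+IL17 Ab libraries, against 357, 376 and 370 CPM in CIE+IgG libraries and 376, 425 and 386 CPM in Air+IgG libraries. Its log2 fold change was -0.91 ± 0.16 against CIE+IgG (edgeR adjusted p = 0.0326) and -1.01 ± 0.16 against Air+IgG (edgeR adjusted p = 0.0127), a fall in both. Prkcb, the gene of protein kinase C beta, fell too, with log2 fold changes of -0.90 ± 0.18 against CIE+IgG (edgeR adjusted p = 0.0394) and -0.94 ± 0.18 against Air+IgG (edgeR adjusted p = 0.0161). CIE+IL17 Ab overlapped neither other group for these 3 genes. Prkcd of the same list is also a thalamus marker.

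Of 23 genes of the cyclic AMP pathway, which alpha-2 receptors inhibit and beta receptors stimulate, 0 rose and 1 fell against CIE+IgG, and 3 rose and 3 fell against Air+IgG. Rapgef4 and Rapgef3 encode exchange factors that bind cyclic AMP. Rapgef4 had 314, 279 and 408 CPM in CIE+IL17 Ab libraries, against 542, 625 and 628 CPM in CIE+IgG libraries and 570, 533 and 589 CPM in Air+IgG libraries. It fell by 0.84 against CIE+IgG (SE 0.14, edgeR adjusted p = 0.0264) and by 0.76 against Air+IgG (SE 0.14, edgeR adjusted p = 0.0156) on the log2 scale. Rapgef3 rose against Air+IgG (log2 fold change 0.63 ± 0.12, edgeR adjusted p = 0.0162) and had 0.45 against CIE+IgG, which did not pass (edgeR adjusted p = 0.0711). The adenylyl cyclase genes Adcy2 and Adcy9 fell against Air+IgG, with log2 fold changes of -0.90 ± 0.22 (edgeR adjusted p = 0.0321) and -1.10 ± 0.26 (edgeR adjusted p = 0.0325). Prkar2a, a regulatory subunit gene of protein kinase A, rose against Air+IgG (log2 fold change 0.37 ± 0.09, edgeR adjusted p = 0.0336).

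Of 18 desensitization and scaffold genes, 2 rose in both comparisons and none fell. That is 11.1% of the list, below the 13.5% of all genes called against Air+IgG and above the 3.18% called against CIE+IgG. Akap12, which encodes a scaffold of protein kinase A that binds beta receptors, had 142, 120.2 and 74.5 CPM in CIE+IL17 Ab libraries, against 32.4, 34.5 and 41.8 CPM in CIE+IgG libraries and 48.9, 44.1 and 49.3 CPM in Air+IgG libraries. It rose by 1.63 ± 0.22 against CIE+IgG (edgeR adjusted p = 0.0212) and 1.24 ± 0.21 against Air+IgG (edgeR adjusted p = 0.0138) on the log2 scale. Rgs16, which encodes a protein that shortens Gi and Gq signals, had 20.2, 59.6 and 28.5 CPM in CIE+IL17 Ab libraries, against 4.30, 6.79 and 6.62 CPM in CIE+IgG libraries and 5.53, 3.77 and 6.72 CPM in Air+IgG libraries. It rose by 2.62 ± 0.42 against CIE+IgG (edgeR adjusted p = 0.0260) and 2.75 ± 0.42 against Air+IgG (edgeR adjusted p = 0.0127) on the log2 scale. All CIE+IL17 Ab libraries were above all others for both genes, as for Adra1b.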

How the data were processed

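Polyadenylated RNA was sequenced from stranded libraries, per the labels' protocols. The authors deposited 1 table of expected counts (estimated counts) per gene, with no scaling between libraries. Per the submitters' processing notes, STAR 2.5.1a, RSEM 1.3.0 and build GRCm38 were used. Annotation release, strand setting and filters: not given in the sources used here. Decimals occur in 27.1% of values. Symbols, coordinates and lengths came from GENCODE M21 (14628 identifiers matched).

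Counts were rounded, filtered with filterByExpr (minimum count 10, 14696 genes, all 7 receptor genes kept) and tested in edgeR 4.0.16 (R 4.3.3) by the robust quasi-likelihood F-test with TMM scaling and 1 mean for each group (residual degrees of freedom, 6). Benjamini-Hochberg adjustment ran over all genes tested in a comparison; genes under 0.05 were called. The SE is the log2 fold change divided by the square root of F. Log2 CPM used a prior count of 2. The fit was checked on counts simulated with the estimated spread. It called 16.4% to 19.4% of 1.5-fold, 52.2% to 61.2% of 2-fold and 83.3% to 89.4% of 4-fold changes, by comparison. False calls were 7 to 10 in each comparison. A gene that did not pass may therefore still differ.

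The receptor genes, pathway lists, marker lists and alternatives were chosen with earlier results of these data known. Named beside the receptors were the 12 called pathway genes with the smallest p, 4 nearest profiles per called receptor gene and abundant markers. Alternatives were DESeq2 1.42.0 and its size factors, limma-voom (limma 3.58.1), other filters, 2-group fits, a replicate block, a term for the label number, the libraries numbered 54 to 60 alone, and libraries left out. The replicates are described as separate mice; 3 per group limits the precision. Listed genes that did not match the table were not analysed here.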

Additional observations from a re-analysis of the deposited data

How the results depend on the processing

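Adra1b was called against CIE+IgG in 15 of 19 alternatives (log2 fold change 2.23 to 2.70) and against Air+IgG in 17 of 19 (1.84 to 2.33); only the 2-group fit, the libraries numbered 54 to 60 and the libraries named beside it ended these calls. Over the receptor values and alternatives, 339 kept direction and side of the threshold, 34 lost a call, 7 gained one and 15 changed sign. For pathway genes these were 317, 124, 15 and 0. Most of the 339 receptor values had no call and gained none. The calls of Adra1d, Adra2b and Adra2c against Air+IgG were kept in 8 of 19, 10 of 18 and 10 of 19 alternatives. Where samples were left out, fewer residual degrees of freedom remained; otherwise the cause was not tested.

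Called for CIE+IL17 Ab against CIE+IgG were 1 receptor gene, 6 pathway genes and 468 of all genes. These counts were 3, 19 and 1476 with DESeq2, 0, 0 and 1 with the 2 groups alone, 2, 11 and 776 with a label number term, and 0, 0 and 1 in libraries numbered 54 to 60. Without the 2 Lars2-rich libraries pathway calls were 2. With a replicate block they were 1, 0 and 14; leaving out single libraries gave 0 to 3, 0 to 19 and 0 to 1313. Called against Air+IgG were 4, 19 and 1990. These were 2, 11 and 1192 with the 2 groups alone, 0, 0 and 2 in libraries numbered 54 to 60, and 2, 7 and 1067 without the Lars2-rich pair. With a replicate block they were 1, 7 and 571, with Adra1b the receptor gene called; leaving out single libraries gave 0 to 5, 0 to 25 and 0 to 2305. Against Air+IgG, CIE+IgG had 0 called genes with edgeR (406 at an unadjusted p under 0.05), 0 with limma-voom and 6 with DESeq2, none of them receptor or pathway genes. The labels do not say whether the replicate numbers pair the libraries. Same-numbered libraries had correlations of deviations from -0.27 to 0.25. Libraries of different numbers were not compared in this way, so these values cannot decide on a pairing.

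Sign changes, none past the threshold, were as follows. Adra1a against CIE+IgG (0.04) was -0.026 with limma-voom, -0.13 without the Lars2-rich pair, and from -0.13 to 0.20 with single libraries left out. Adra1a against Air+IgG (-0.10) was 0.14 in libraries numbered 54 to 60 and from -0.27 to 0.065 with single libraries left out. Adrb1 against CIE+IgG (0.08) was -0.058 in libraries numbered 54 to 60 and from -0.12 to 0.32 with single libraries left out. Adrb1 against Air+IgG (-0.04) was 0.17 without the Lars2-rich pair and from -0.25 to 0.19 with single libraries left out. For CIE+IgG against Air+IgG, Adra1d (-0.07) was 0.23 without the Lars2-rich pair and from -0.30 to 0.23 with single libraries left out, and Adra2a (0.23) from -0.093 to 0.41. Adra2b was outside the strict filter (CPM above 1 in every library), which gave no value for it. It was also outside the filter in the fit of CIE+IgG and Air+IgG alone. The depth limits Adra2b most, with 2 to 7 counts per Air+IgG library.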
